A study of Homo sapiens with 8 samples.

Results

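Among 100 kb stretches of the genome with a strong nuclear speckle signal, a small set lost much of that signal when HIF-2α was blocked, and these stretches are described here. Members were chosen from the authors' deposited tables as autosomal 100 kb windows with a log2 SON concentration of at least 8 in both treatments and a change, PT2399 minus DMSO, of -0.6 or lower, which leaves at most 66.0% of the DMSO signal. The rule was met by 882 of the 50416 autosomal windows with both concentrations at least 8, or 1.75% of them, out of 278316 windows of this size in all. Overlapping members were merged into 294 regions that cover 38.83 Mb on hg19. Because the change itself chose the members, their levels, changes and FDR values are given as descriptions, with no test.

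The cells are 786-O, an established line of human clear cell renal carcinoma, treated for 3 h with 2 µM PT2399 or with the solvent DMSO. Each treatment has 2 SON pulldown and 2 input libraries, 8 in all, and in 4 of the 8 the title and the antibody or treatment field disagreed, so that the titles were followed. Each treatment has 1 value per window, the authors' mean, with no spread between replicates, and the depth of each library is unknown. No label tells if replicates came from separate cultures, and a single cell line stands for the disease.

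Nuclear speckles are bodies in the nucleus that are rich in splicing factors and RNA, and SON is one of the proteins that hold them together. In TSA-seq an antibody to SON carries a peroxidase that deposits biotin on the chromatin nearby, so that DNA close to speckles is pulled down in excess. Active, gene-rich chromatin tends to lie near speckles. HIF-2α is a transcription factor that pairs with ARNT and drives hypoxia genes in clear cell renal carcinoma, where loss of the VHL protein leaves it stable, and PT2399 breaks that pairing.

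Promoters of 4 genes at high-ranking regions are shown here, since HIF dimers bind DNA at a short core, written ACGTG or GCGTG. The genes are in the authors' gene list for lower windows. TGFBI, P4HA1 and RNF169 belong to the first 3 regions by rank, and DDIT4 was added after its region's values were seen. The sequences are RefSeq promoters of build GRCh38.p14, a build other than that of the windows, and run from 250 bases before to 50 bases after the gene start, 5′ to 3′ on the gene's strand. Capitals mark a match of either core on either strand.
TGFBI, chr5:136028738-136029037, plus strand: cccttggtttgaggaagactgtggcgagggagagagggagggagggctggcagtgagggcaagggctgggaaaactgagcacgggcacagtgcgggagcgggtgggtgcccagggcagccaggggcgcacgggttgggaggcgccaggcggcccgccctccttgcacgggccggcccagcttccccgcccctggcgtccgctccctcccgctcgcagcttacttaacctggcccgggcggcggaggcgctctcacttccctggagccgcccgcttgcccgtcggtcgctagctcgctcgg
P4HA1, chr10:73096817-73097116, minus strand: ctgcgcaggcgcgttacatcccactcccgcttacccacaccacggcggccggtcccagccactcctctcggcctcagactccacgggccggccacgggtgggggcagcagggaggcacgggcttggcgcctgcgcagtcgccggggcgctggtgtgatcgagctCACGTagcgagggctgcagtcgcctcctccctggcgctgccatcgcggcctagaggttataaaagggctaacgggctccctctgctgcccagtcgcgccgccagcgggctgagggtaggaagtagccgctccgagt
RNF169, chr11:74748599-74748898, plus strand: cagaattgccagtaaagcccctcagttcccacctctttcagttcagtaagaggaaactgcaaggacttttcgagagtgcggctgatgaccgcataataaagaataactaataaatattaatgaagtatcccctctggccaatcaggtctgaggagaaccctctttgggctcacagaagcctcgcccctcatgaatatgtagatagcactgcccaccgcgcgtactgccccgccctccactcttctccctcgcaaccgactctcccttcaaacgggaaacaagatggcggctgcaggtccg
DDIT4, chr10:72273674-72273973, plus strand: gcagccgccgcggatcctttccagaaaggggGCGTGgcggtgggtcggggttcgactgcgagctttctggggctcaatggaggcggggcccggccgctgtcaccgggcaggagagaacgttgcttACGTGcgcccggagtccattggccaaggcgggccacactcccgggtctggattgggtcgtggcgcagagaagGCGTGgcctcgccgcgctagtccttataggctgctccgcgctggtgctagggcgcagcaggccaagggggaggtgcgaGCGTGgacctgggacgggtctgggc
The DDIT4 promoter held 4 matches, 1 of ACGTG and 3 of GCGTG, and the P4HA1 promoter held 1 match of ACGTG. The TGFBI and RNF169 promoters held 0. Of 35116 RefSeq promoters of this length, 21.4% held ACGTG, 36.5% held GCGTG and 48.4% held either, so a match is common, and it marks letters and not a bound site.

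The members lay in the lower part of the strong SON range. The median DMSO concentration of the 882 windows was 9.11 (quartiles 8.89 and 9.37), against 9.76 over all 50416 eligible windows. With PT2399 the members' median was 8.37, against 9.62. The median change of the members was -0.68, which is 62.4% of the DMSO signal, and the lowest was -1.54, or 34.4%. Over all eligible windows the median change was -0.12, and 76.4% had less signal with PT2399 than with DMSO. Of the members, 76.2% had a mean level, the log2 of the mean linear signal of both treatments, from 8.5 to below 9.5. In the eligible windows with a mean level from 8.5 to below 9, 5.75% met the rule, against 0.195% from 10 to below 11 and 0 of 4669 at 11 or above. The quartile range of the change also narrowed with level, from 0.41 to 0.15 and 0.12 in these 3 bands.

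**Figure D1:**
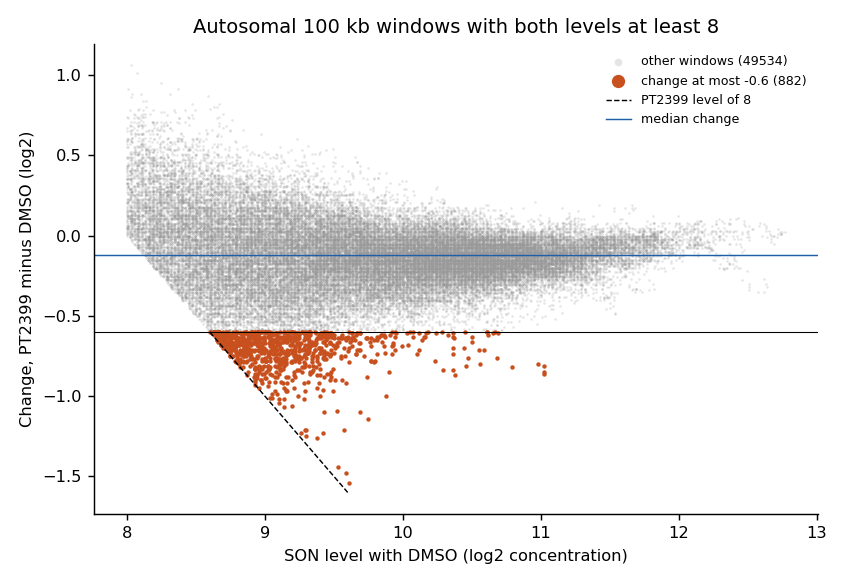
Change in SON signal (PT2399 minus DMSO, log2) against the DMSO level (log2 concentration) for the 50416 autosomal 100 kb windows with both levels at least 8, each point 1 window. The 882 members (orange) crowd at DMSO levels near 9, and the dashed line, a PT2399 level of 8, cuts them off at the lower left.

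Both limits of the rule cut through a continuous range. At the limit on the change, 72 members had a change of exactly -0.60 and 87 windows just outside had -0.59. The median DMSO level was 9.0 inside and 9.06 outside. At the limit on the level, 147 members had a PT2399 concentration below 8.1, with a median change of -0.68. Just outside, 129 windows with the same limit on the change had 7.9 to below 8, and their median change was -0.70. Without a limit on the PT2399 level, 2980 autosomal windows with DMSO of at least 8 had a change of -0.6 or lower, and 2098 of them were below 8 with PT2399. In 112 of the 294 regions (38.1%) the window with the lowest change in the dip had a PT2399 level below 8, so the members there flank a deeper point that missed the level limit.

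The authors' FDR did not single out most of the members. At an FDR of at most 0.01 in the authors' deposited tables, 201 of the 882 members were called (22.8%), against 2.42% of all eligible windows called lower, a contrast that the rule itself used. The median FDR of the members was 0.049 and the highest 0.807 in the authors' deposited tables. An unadjusted p-value of at most 0.05 in the authors' deposited tables was found for 809 members (91.7%), against 22.5% of eligible windows that were lower at that p. All 201 are in the authors' list of lower windows, where they make up 14.3% of its 1403 windows. By the same FDR, 1.61% of the 87051 autosomal windows with both levels at least 2 were called lower. Of the 1221 eligible windows called lower, 1020 were outside the rule, with a median DMSO level of 10.73 and a median change of -0.38. A called member was present in 76 regions (25.9%), and 102 regions overlapped some window of the authors' list. At a mean level below 8.5, 0 of 141 members were called by the same FDR in the authors' deposited tables. Of all 5217 eligible windows at that level, 0 were called lower either. At a mean level from 10 to below 11, 29 of 30 members were called, against 626 of all 15361 eligible windows. Counted by DMSO level, 45 of the 46 members at 10 or above were called.

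Windows on the opposite side were fewer as deposited, but the split depends on the scaling between treatments. Of the eligible windows, 185 (0.367%) had a change of 0.6 or higher, in 87 regions, so that 82.7% of the windows past 0.6 on either side were lower. When each set was recentred on the median change of its windows with both levels at least 2, which lay between -0.13 and -0.12, 314 windows were at -0.6 or lower and 511 at 0.6 or higher. The lower share was then 38.1%. Recentring on the windows with both levels at least 8 gave 325 and 487, a lower share of 40.0%. All of the first 12 regions still held a window at -0.6 or lower after either recentring.

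The 9 window sets, each shifted by 10 kb, show how far a region depends on where the windows start. They share reads and are not replicates. A member was found in all 9 sets at 10 regions, in at least 5 sets at 55 regions, and in a single set at 120 regions (40.8%). The 55 regions held 438 of the 882 member windows. The median of each region's lowest change was -0.86 for these 55 and -0.63 for the 120. A called member was present in 31 of the 55 (56.4%) and 17 of the 120 (14.2%), at an FDR of 0.01 in the authors' deposited tables. The 120 hold 1 member window each, and a region with more windows has more chances of a low or called one. Both differences are therefore partly built in, and nothing is read from them. Regions were ranked by the number of sets and then by the lowest change, and the first 12 follow. Genes are named where they are in the authors' gene list and textbook maps place them in the interval, since no annotation of hg19 was used here.

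The first region lay on chromosome 5 at 135150001 to 135600000, around TGFBI, which encodes a secreted matrix protein, LECT2, a secreted liver-derived factor, and SMAD5, a transducer of BMP signals. It was the longest of all 294 regions, at 450 kb, and held 21 members in 9 sets. Their DMSO levels ran from 8.71 to 10.55 and their PT2399 levels from 8.04 to 9.84. The lowest change, -1.44, was at 135260001 to 135360000, where the level went from 9.53 to 8.09, or 36.9% of DMSO (the authors' deposited table: FDR 3.27e-08). The window with the most DMSO signal, at 135320001 to 135420000, went from 10.55 to 9.84, a change of -0.71. The lowest change therefore lay beside the crest of the SON signal and not on it. A window that overlaps the same dip but missed the level limit, at 135230001 to 135330000, went from 9.10 to 7.26. Its change was -1.84, with a higher FDR (the authors' deposited table: FDR 0.145). The flanks were also lower, with a median change of -0.88 on the left and -0.58 on the right over windows 200 to 500 kb away with both levels at least 5. Only 17 windows on the left and 11 on the right met that limit. Without it, the median level on the left was 7.525 with DMSO and 5.72 with PT2399. On the right it was 5.57 with DMSO and -0.11, the floor, with PT2399.

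Chromosome 10 held regions 2 and 8. Region 2, at 74700001 to 74980000, surrounds P4HA1, which encodes a subunit of the enzyme that hydroxylates proline in collagen, with NUDT13 and ECD beside it. Its 12 members had DMSO levels from 9.06 to 9.6 and PT2399 levels from 8.03 to 8.97. The best window went from 9.26 to 8.03, a change of -1.23 (the authors' deposited table: FDR 5.51e-06). The DMSO level there lay between the flank medians of 9.08 on the left and 9.66 on the right, whereas the PT2399 level lay below both of its flank medians, 8.56 and 9.35. Region 8, at 73810001 to 74180000, surrounds DDIT4, which encodes an inhibitor of mTORC1, DNAJB12, a chaperone of the endoplasmic reticulum, and ANAPC16, a subunit of the anaphase-promoting complex. All 23 of its members were called at an FDR of 0.01 in the authors' deposited tables. DMSO levels ran from 9.72 to 11.02 and PT2399 levels from 8.86 to 10.21. The change ran from -0.88 to -0.60 in these members, with the upper end set by the rule. Windows inside the region at -0.57 and -0.59 missed the limit. The change was -0.88 at 73870001 to 73970000 and -0.86 at 74000001 to 74100000, where DMSO was at its highest. Region 13, at 74420001 to 74630000, with a lowest change of -0.97 (the authors' deposited table: FDR 0.0184) lies between them. The 4 regions of this stretch, from 73810001 to 74980000, held 48 of the 98 members of the chromosome.

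Regions 3, 4, 7 and 12 were dips 100 to 160 kb wide. Region 3, on chromosome 11 at 74430001 to 74660000, lies at RNF169, which encodes a ubiquitin-binding protein of the DNA break response. Its 13 members had DMSO levels from 9.22 to 9.49 and PT2399 levels from 8.08 to 8.55, and the best window changed by -1.21 (the authors' deposited table: FDR 0.000527). Region 4, on chromosome 1 at 51950001 to 52150000, lies at EPS15, an endocytic adaptor, and OSBPL9, a lipid-binding protein. Its best window went from 9.10 to 8.08, a change of -1.02 (the authors' deposited table: FDR 0.000594). The left flank had a median change of 0.05. The right flank had a median of -0.19 but held a second dip. At 230 kb from the best window the change was -1.11 (the authors' deposited table: FDR 0.189), with a PT2399 level of 7.16. A separate region at 52260001 to 52380000, with a lowest change of -0.78 in its members, overlaps the window at 230 kb. Region 7, on chromosome 12 at 360001 to 550000, lies at KDM5A, a demethylase of histone H3 lysine 4, and CCDC77. Its best window went from 9.47 to 8.57, a change of -0.90 (the authors' deposited table: FDR 0.000508), between flanks at -0.22 and -0.12. Region 12, on chromosome 7 at 140150001 to 140340000, lies at DENND2A, a regulator of Rab proteins. Its best window had a level of 9.29 with DMSO and 8.32 with PT2399, a change of -0.97 (the authors' deposited table: FDR 0.000205), next to a left flank that was higher with PT2399, with a median change of 0.40.

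Chromosome 1 held 3 more of the first 12. Region 11, at 206140001 to 206320000, lies at AVPR1B, a vasopressin receptor, and CTSE, an aspartic protease. Its 8 members had a median change of -1.09, the lowest median among the 12. The best window went from 9.38 to 8.12, a change of -1.26 (the authors' deposited table: FDR 1.05e-06). All 8 members were called at 0.01 in the authors' deposited tables. The DMSO level was at -0.07, the floor of the scale, in a short stretch 220 kb to either side of the best window. Over windows 200 to 500 kb away, however, the median DMSO level was 9.63 on the left and 8.625 on the right. Region 9, at 206870001 to 207270000, holds MAPKAPK2, a kinase downstream of p38, PFKFB2, which sets the level of fructose 2,6-bisphosphate, and C4BPB, a complement regulator. Its best window changed by -0.85, at the right edge of the region, and 0 of its 12 members were called (the authors' deposited tables: lowest FDR 0.0114). The window starting 10 kb further right went from 8.84 to 7.86 and missed the level limit. Its change was -0.98 (the authors' deposited table: FDR 0.00501). Region 9 overlapped 2 windows of the authors' list. Region 10, at 160150001 to 160420000, holds PEA15, which binds ERK, NCSTN, a subunit of γ-secretase, and COPA, a subunit of the COPI coat. Its 15 members had changes from -0.79 to -0.63, and 12 were called at 0.01 in the authors' deposited tables. A window inside the region, 100 kb from the best window, missed the limit with a change of -0.57.

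Regions 5 and 6 had changes of similar size but 0 called members. On chromosome 17 at 59940001 to 60140000 the best window went from 9.14 to 8.12, a change of -1.02 (the authors' deposited table: FDR 0.0152). On chromosome 5 at 14310001 to 14550000 it went from 9.15 to 8.18, a change of -0.97 (the authors' deposited table: FDR 0.0715). Region 6 nevertheless overlapped 1 window of the authors' list, whereas region 5 overlapped 0. A window that overlaps region 6, 150 kb to the left of its best window, went from 8.51 to 7.01 and missed the level limit. Its change was -1.5, and it was called at 0.01 in the authors' deposited tables. To the right of region 6 the median DMSO level was -0.07, and 0 windows there had both levels at least 5. Neither interval had a gene that met the naming rule.

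**Figure D2:**
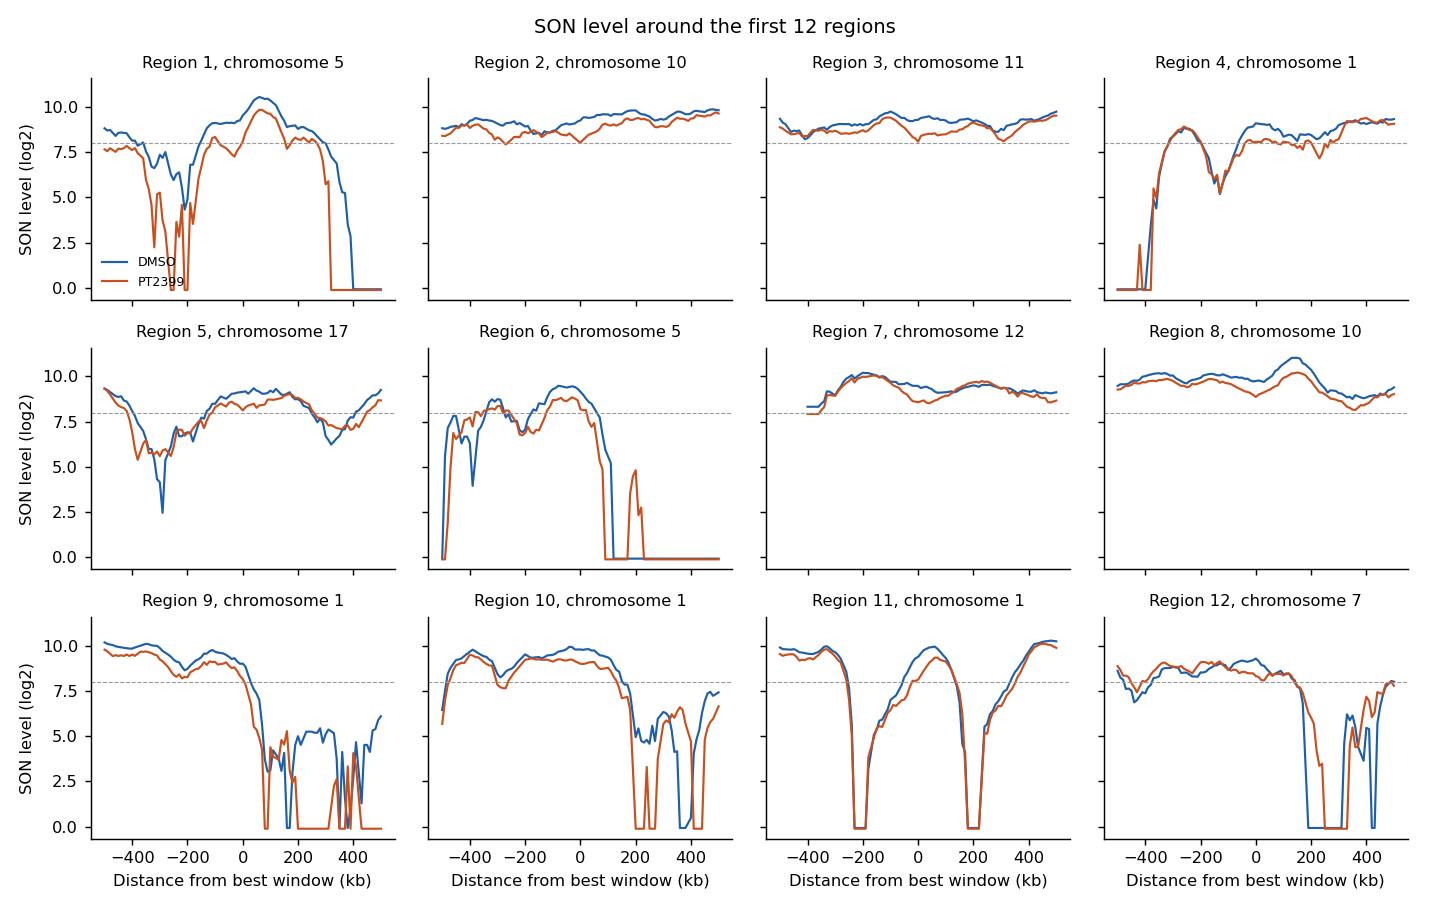
SON level (log2 concentration, authors' means) with DMSO (blue) and PT2399 (orange) in 100 kb windows around the best window of each of the first 12 regions, against distance in kb; the dashed line is the limit of 8. In regions 2 and 3 the PT2399 line dips further than the DMSO line, region 8 has a change between -0.88 and -0.60 over its members, and regions 2, 3, 5, 7 and 8 are those where neither line reaches the floor of the scale within 500 kb.

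Outside these 12, the lowest changes were found on chromosomes 9, 20 and 7. A region on chromosome 9 at 107540001 to 107650000 overlaps ABCA1, the cholesterol exporter, and its best window went from 9.61 to 8.07, a change of -1.54, the lowest of all members. Its FDR was 0.304 in the authors' deposited table, and only 2 sets held a member. On the same chromosome, a region at 116540001 to 116740000 that overlaps ZNF618 had a best window with a change of -1.21 (the authors' deposited table: FDR 0.000234) and members in 7 sets. A region on chromosome 20 at 59740001 to 59900000 reached -1.01 (the authors' deposited table: FDR 0.00465), and so did one on chromosome 7 at 47200001 to 47340000 (FDR 0.0638).

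In 12 regions the best window had a DMSO level of at least 10, and there the changes were close to the limit and the FDR values low. Those named next were chosen after their values were seen. Their lowest changes ran from -0.71 to -0.60, and 24 of their 26 members were called at 0.01 in the authors' deposited tables. One on chromosome 11 at 69410001 to 69550000 holds CCND1, which encodes cyclin D1, a HIF-2 target in this cancer. Its best window went from 10.62 to 10.00, a change of -0.62 (the authors' deposited table: FDR 9.65e-08). One on chromosome 22 at 35840001 to 35980000, at RASD2, a small GTPase, changed by -0.71 from 10.59 (the authors' deposited table: FDR 2.25e-09). One on chromosome 1 at 205420001 to 205630000, at CDK18, a cyclin-dependent kinase, changed by -0.64 from 10.37 (the authors' deposited table: FDR 2.99e-05). The 1 member at 1400001 to 1500000 on chromosome 5, at SLC6A3, the dopamine transporter, and LPCAT1, which makes phosphatidylcholine, went from 10.61 to 10.01 (the authors' deposited table: FDR 0.000183). Of a list of 27 HIF-responsive genes, 10 were in the authors' 100 kb gene list and 5 in their 50 kb list, which hold 4.27% and 1.10% of the 20056 protein-coding genes of RefSeq. The 5 were DDIT4, P4HA1, TGFBI, CCND1 and SLC2A1, and the list was drawn up with results of these data known, so nothing is read from its counts.

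Most dips were sharp by the width used here. The width of a dip was taken as the stretch of window starts around the best window with at least 50% of its change, and a source shorter than a window gives about 100 kb. Widths ran from 20 to 570 kb, with a median of 100 kb (quartiles 80 and 130). The best window was chosen as the lowest and shares bases with its neighbours, so a width near 100 kb is partly built in. By this measure 238 regions (81.0%) were sharp, at 150 kb or less, 33 were intermediate, and 23 (7.82%) were broad, at 250 kb or more. Among the first 12 regions, 7 were sharp, 2 intermediate and 3 broad. The broad ones were region 8, at 310 kb, region 10, at 270 kb, and region 6, at 260 kb. Broad regions were brighter, with a median DMSO level of 9.5 at the best window against 9.01 for sharp ones, and of the 12 regions with a DMSO level of at least 10, 7 were broad. The median change of the best window was -0.64 in broad regions, -0.69 in sharp and -0.74 in intermediate ones. Width was read at 50% of each region's own change, so a smaller change sets a looser limit. How far this measure sets the link of width with level was not tested. The CCND1 region had a width of 340 kb, and its members, 4 in number, covered only the part past the limit. With the zero line moved to the median change of each set, 11 regions were broad.

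A window 100 kb from the best one shares no base with it, and at that distance most of the dip was gone. The best window was chosen as the lowest and nearer windows overlap it, so a decay over 100 kb is partly built in. The medians below are descriptions. Over the 55 regions with at least 5 sets, the median change was -0.86 at the best window, -0.54 and -0.62 at 50 kb on the left and right, and -0.24 and -0.25 at 100 kb. From 100 to 500 kb the medians of these regions ran from -0.37 to -0.09, with a middle value of -0.25, against -0.12 for all eligible windows. From 34 to 55 regions had a value at each of these distances, in windows with both levels at least 5. Eligible windows have both levels at least 8, so the sets compared differ in level. Around the 120 regions of a single set the medians at 100 kb were -0.07 and -0.05, and from 100 to 500 kb they ran from -0.22 to -0.04. Over all 294 regions, 536 flanks had at least 10 windows with both levels at least 5 between 200 and 500 kb away. Their median change was -0.18 (quartiles -0.34 and -0.02), 152 of them were at -0.3 or lower, and 111 were above 0.

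**Figure D3:**
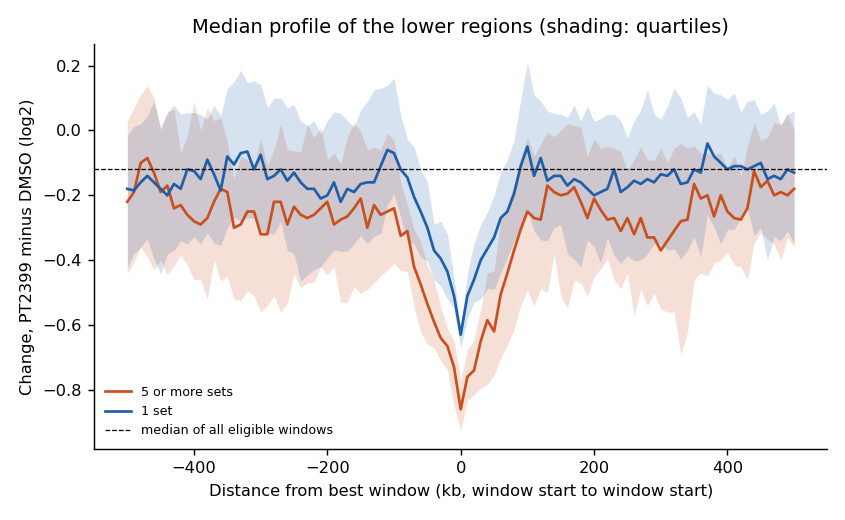
Median change (log2) against distance from the best window in kb, for the 55 regions with members in at least 5 sets (orange) and the 120 with members in 1 set (blue); shading spans the quartiles over regions and the dashed line is the median of all eligible windows, -0.12. The best window was chosen as the lowest, so the centre is low by construction. Beyond 100 kb the orange line runs from -0.37 to -0.09 and the blue line from -0.22 to -0.04. At most distances fewer regions have a value.

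The regions often lay where SON signal stood above one or both sides. The DMSO level of the best window was compared with the median 200 to 500 kb away on each side, with a difference of 0.5 counted. It was above both sides in 72 regions (24.5%), above 1 side with the other within 0.5 in 109 (37.1%), and on a slope in 36 (12.2%). A plateau, within 0.5 on both sides, was found for 39 regions (13.3%), among them regions 2, 3 and 7. For all eligible windows the same shares were 13.3%, 29.0%, 9.39% and 29.9%. Regions are best windows and eligible windows are single windows with higher levels on average, so these shares describe both sets and compare no matched levels.

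The 50 kb windows come from the same libraries and show where within a region the change lay. Inside the regions there were 3630 of them with both levels at least 7, and 1714 (47.2%) had a change of -0.6 or lower, against 3.86% of the 99152 autosomal 50 kb windows with that level. Only 58 (1.60%) were higher with PT2399, against 26.8%. At an FDR of 0.01 in the authors' deposited tables, 157 (4.33%) were called lower, against 0.53%. The rule used the same reads, so nothing is read from these shares. At least 1 such window at -0.6 or lower was present in 264 of the 294 regions (89.8%), including all 55 with members in at least 5 sets. The 30 others had at most 3 sets, and their lowest 50 kb changes ran from -0.59 to -0.21. Since 2 adjoining 50 kb windows sum to a 100 kb window, a fall of 0.6 in the whole needs about as large a fall in at least 1 of them. These counts are therefore largely fixed by the rule, and 50 kb windows with a level below 7 were left out of them. Nothing is read from either count. A 50 kb window called at 0.01 in the authors' deposited tables lay in 41 regions.

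Named regions differed in this respect. The DDIT4 region had 25 called 50 kb windows out of 59, the lowest at 74000001 to 74050000, where the level was 9.87 with DMSO and 8.69 with PT2399, a change of -1.18 (the authors' deposited table: FDR 1.73e-13). In the TGFBI region, 36 of 49 were at -0.6 or lower and 10 were called at 0.01 in the authors' deposited tables. At AVPR1B and CTSE, 12 of 17 were at -0.6 or lower, and the same number was called in the authors' deposited tables. At RNF169, 26 of 29 were at -0.6 or lower but 4 were called in the authors' deposited tables. In region 10, with PEA15 and COPA, 30 of 41 were at -0.6 or lower and 0 were called in the authors' deposited tables.

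Each best window is made of 2 adjoining 50 kb windows, and both could be read. In 285 of the 294 regions the linear sum of both matched the whole to within 0.05 on the log2 scale in both treatments. Both 50 kb windows were lower with PT2399 in 290 regions, at -0.3 or lower in 252 (85.7%), and at -0.6 or lower in 95. Of single 50 kb windows with both levels at least 7, 21.4% were at -0.3 or lower, a share per window and not per pair. The pairs had no limit on level and make up windows chosen as the lowest, so nothing is read from these shares. The median gap between them was 0.43. At P4HA1 they changed by -1.28 and -1.19, and in region 10 both changed by -0.79. In the TGFBI region they changed by -2.19 and -1.0, with the first at 5.68 with PT2399, and in the DENND2A region by -1.59 and -0.33.

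**Figure D4:**
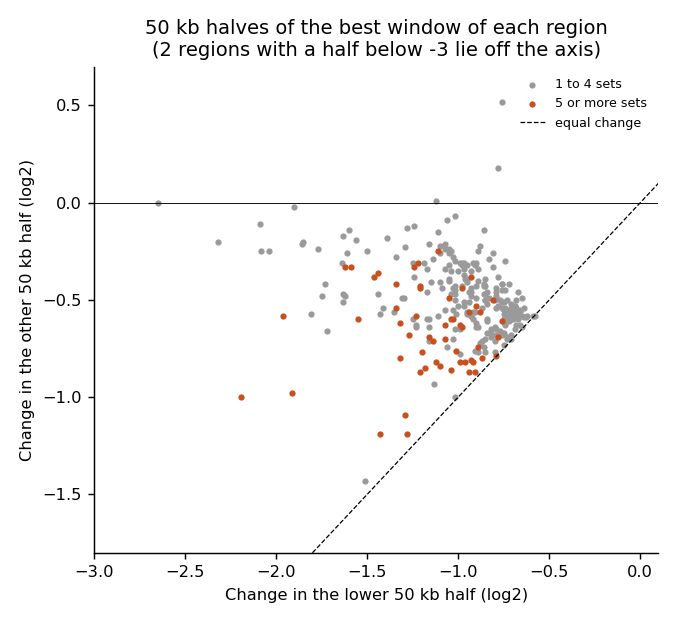
Change (log2) in the 2 adjoining 50 kb windows that make up the best window of each region, the lower one on the horizontal axis; points on the dashed line have equal changes. Regions with members in at least 5 sets (orange) have both below 0, and 2 regions with one below -3 are outside the axis.

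The regions were spread over 21 of the 22 autosomes. Chromosome 1 held 52 regions and 176 members, 20.0% of the total. As a share of eligible windows, chromosome 10 was highest at 5.43% (98 of 1806), followed by chromosome 5 at 4.86% (79 of 1627), against 1.75% over all autosomes. Outside the stretch with DDIT4 and P4HA1, left out after the data were seen, the share on chromosome 10 was 2.95%. Outside the stretch from 134020001 to 135600000, which holds the TGFBI region and 36 of the 79 members, the share on chromosome 5 was 2.80%. Chromosome 19 had 0.287% (12 of 4179) and chromosome 13 had 0 of 206. Chromosome 19 is bright, with a median DMSO level of 10.60, and the rule is met less often at such levels. Within the band of mean levels from 8.5 to below 9.5, chosen after the data were seen, the shares were 7.60% on chromosome 5, 7.31% on chromosome 1, 6.49% on chromosome 10, 1.88% on chromosome 19 and 0.828% on chromosome 15, against 4.03% over all autosomes. Neighbouring windows overlap, so chromosomes are compared here without a test.

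**Figure D5:**
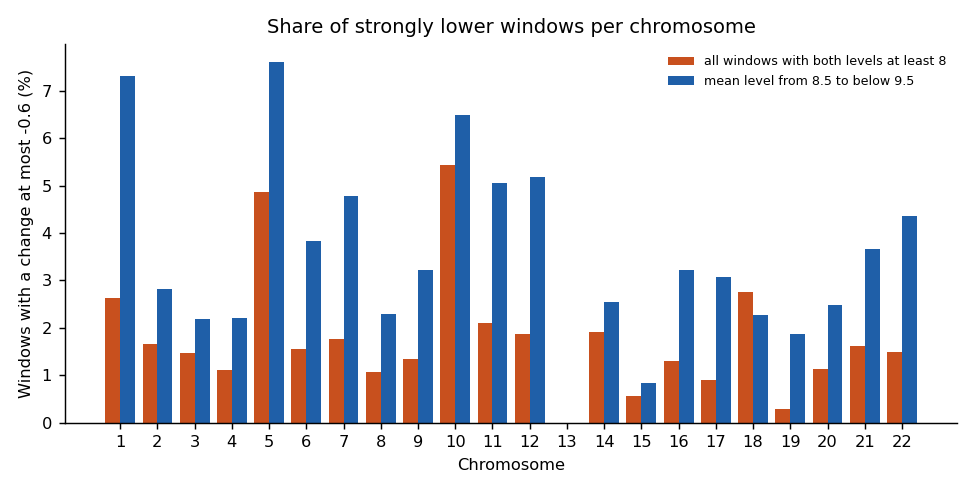
Share of windows (%) with a change of -0.6 or lower on each autosome, over all windows with both levels at least 8 (orange) and over those with a mean level from 8.5 to below 9.5 (blue). Chromosomes 1, 5, 7, 10, 11 and 12 lie above the share of all autosomes by both measures, chromosome 1 at 2.64% and 7.31%. Chromosome 7 does so narrowly in the first, at 1.76%, and chromosome 13 is at 0.

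Neighbouring regions were also counted together. With those within 1 Mb joined, the 294 regions formed 184 groups, and 177 regions lay in 67 groups of at least 2. The eligible windows cover 631.82 Mb, so that neighbours at this distance are common for 294 regions however they are placed, and nothing is read from these counts. The largest group held 8 regions and 37 members on chromosome 1 from 203810001 to 207270000, and includes regions 9 and 11 and the one at CDK18. Groups of 6 were found on the same chromosome at 3950001 to 5830000 and at 223380001 to 225670000. The group with the most members was that on chromosome 10, with 48 in 4 regions.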

How the data were processed

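Per the submitters' processing notes, Bowtie2, Picard, DiffBind and bedtools were used with the build hg19; no version, role or setting was found, nor how inputs entered. The deposited tables, per the file headers, give a concentration per treatment (log2, a mean), a log2 fold, and, per window, a p-value with its FDR. There are 9 tables of 100 kb windows, shifted by 10 kb, and as many of 50 kb windows, shifted by 5 kb. The deposited lists of lower windows and of genes hold positions and symbols, with no score. DMSO was taken as the column named control. Changes are the PT2399 minus the DMSO concentration. The unit allowed no count test, and values per library were not analysed here, so no p-value was computed. The 2 replicates per group may be technical. Members overlapping by at least 1 bp were merged. Merging and widths were tested on simulated dips of known length. The simulated level was flat, the fall fixed and the noise independent between windows, unlike the data. No error rate for the data follows from that test. Alternatives covered the limits, merge rule, sets, scaling, FDR and window size. The naming rule took the first 12 regions by rank and the 3 lowest changes outside them, with 1 tie; regions with a DMSO level of at least 10 were named after their values were seen. A gene was named, at most 3 a region, if it was in the authors' gene lists, on the region's chromosome in RefSeq's GRCh38.p14 table, and placed there by textbook maps. Members, lists and rules were chosen with earlier results of these data known. Analyses used Python 3.11.15, numpy 2.4.6, pandas 2.3.3 and matplotlib 3.10.9.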

Additional observations from a re-analysis of the deposited data

How the results depend on the processing

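The counts of 294 regions and 882 windows follow from the limits, which lie inside a continuous range. Regions and windows numbered 493 and 1915 with a change of -0.5 or lower, and 65 and 154 at -0.8. With a level limit of 7 they were 804 and 3065, and with 9 they were 37 and 91. Recentring on windows with both levels at least 2 gave 120 and 314, and on those with both at least 8 gave 124 and 325. An FDR of at most 0.01 left 76 and 201, and 0.001 left 31 and 96. Single sets gave as many regions as windows, since windows of 1 set do not overlap: 107, 84, 96, 95, 101, 102, 103, 103 and 91 for sets 1 to 9. At least 2 sets left 174 regions, and at least 5 left 55 with 438 windows. The 50 kb windows with a limit of 7 gave 1052 and 3825. Broad regions numbered 23, 11 with the zero line at the median of the set and 45 with the width read at a change of -0.3. Agreement at 50 kb was found in 264 regions, and in 41 by an FDR of at most 0.01. Each alternative's own construction (another limit, fewer windows, a shifted zero) sets these counts; beyond that the cause was not tested. The other merge rules, the 50 kb windows with a limit of 8, the count of sharp regions and the minimum of 2 for flank windows moved their counts by less than 1.5 times. Of the first 12 regions, 9 held a member at an FDR of 0.001, 6 with a level limit of 9 and 7 among 50 kb windows with a limit of 8. No paired analysis was possible because the deposited columns are means per treatment and carry no replicate number. For the same reason no replicate could be left out, and depth per library is unknown, so counting error could not be given.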
